A study of Rattus norvegicus with 12 samples.

Results

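The genes described here are 44 genes of DNA replication and S phase, taken from textbook knowledge of the replication machinery: origin licensing factors, the MCM helicase and its activators, polymerases, the sliding clamp and its loader, enzymes that make deoxynucleotides, E2F factors, chromatin assembly factors and the replication checkpoint. A gene was counted as measured where the platform annotation gave its symbol to a probe set, and each of the 38 measured genes had 1 probe set among the 23188 on the array. Mcm5, Rpa1, E2f2, Uhrf1, Chaf1a and Clspn had no probe set under their symbols and were not measured here. The genes were not chosen by a threshold on these data, but they were chosen with earlier results of these data known.

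The arrays compared ELT3, a Tsc2-null uterine leiomyoma cell line from an Eker rat, with ELT3-245, a rapamycin-resistant line grown from a single ELT3 xenograft tumor of 1 mouse that had been treated with rapamycin. Both lines lack Tsc2 and were cultured with serum, then given DMSO or 20 nM rapamycin for 24 hours, with triplicate plates in each of the 4 groups and 1 rat Clariom S array per plate. The labels also give the stock as 20 mM, and 10 µl of it in 10 ml of medium would be 20 µM, 1000 times the stated 20 nM, so the dose the cells received is uncertain. ELT3-245 is 1 line from 1 tumor, and nothing says that the plates came from separate experiments, so p-values measure only the spread between these plates.

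Before S phase, the origin recognition complex, CDC6 and CDT1 load the MCM helicase onto origins, a step called licensing. The kinase CDC7 with its partner DBF4, and the cofactors CDC45 and GINS, then turn the loaded helicase on, and polymerases, the clamp PCNA and its loader RFC copy the DNA. Many of these genes are transcribed as cells leave G1, when E2F factors are released from the RB proteins. The product of Tsc2 restrains the kinase complex mTORC1, which rapamycin inhibits and which links nutrients and growth factors to protein synthesis and cell growth. In extracts of whole cultures, fewer cells in S phase and less RNA per cell cannot be told apart.

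The stretches of promoter below show where E2F-type words lie in 7 of the 17 genes that hold one, beside 1 of the 20 genes whose windows hold none. They come from the RefSeq promoter windows of build GRCr8, and 37 of the 44 genes had a window (none for Cdc6, E2f1, E2f2, Gins4, Mcm4, Orc1 and Rrm2). The words searched were TTTCCCGC, TTTGGCGC, TTTCGCGC and TTTGCCGC on both strands, in 250 bases before to 50 bases after each start. Each line runs 5′ to 3′ on the gene's strand from 120 bases before the start to 30 bases after it, with words in capitals. The loci are Cdt1 (chr19:67529129-67529278, plus strand), Mcm3 (chr9:30733717-30733866, minus strand), Gins1 (chr3:160184800-160184949, plus strand) and Gins3 (chr19:9434650-9434799, minus strand). The others are Pole (chr12:52053633-52053782, minus strand), Rfc3 (chr12:5836448-5836597, plus strand), Chek1 (chr8:44629814-44629963, minus strand) and Fen1 (chr1:216274367-216274516, minus strand), the last being the gene with none.
Cdt1: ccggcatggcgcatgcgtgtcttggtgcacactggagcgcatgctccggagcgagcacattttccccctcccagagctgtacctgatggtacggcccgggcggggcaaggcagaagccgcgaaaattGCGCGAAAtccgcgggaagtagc
Mcm3: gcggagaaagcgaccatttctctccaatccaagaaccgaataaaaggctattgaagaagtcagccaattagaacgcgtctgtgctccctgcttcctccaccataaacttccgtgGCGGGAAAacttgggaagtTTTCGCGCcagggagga
Gins1: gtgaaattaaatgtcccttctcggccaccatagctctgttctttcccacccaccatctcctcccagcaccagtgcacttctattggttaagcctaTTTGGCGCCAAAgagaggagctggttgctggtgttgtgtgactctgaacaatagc
Gins3: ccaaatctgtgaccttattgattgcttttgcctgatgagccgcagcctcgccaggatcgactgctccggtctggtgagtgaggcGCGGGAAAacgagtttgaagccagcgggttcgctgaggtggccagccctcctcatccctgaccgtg
Pole: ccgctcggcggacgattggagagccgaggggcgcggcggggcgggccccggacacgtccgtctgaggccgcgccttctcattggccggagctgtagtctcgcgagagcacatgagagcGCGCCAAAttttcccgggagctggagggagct
Rfc3: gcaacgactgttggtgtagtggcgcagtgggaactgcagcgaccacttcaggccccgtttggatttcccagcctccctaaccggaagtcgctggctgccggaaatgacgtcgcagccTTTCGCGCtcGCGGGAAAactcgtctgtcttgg
Chek1: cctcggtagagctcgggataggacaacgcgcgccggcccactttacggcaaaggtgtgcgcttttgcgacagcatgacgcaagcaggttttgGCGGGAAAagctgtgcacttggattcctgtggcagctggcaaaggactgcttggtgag
Fen1: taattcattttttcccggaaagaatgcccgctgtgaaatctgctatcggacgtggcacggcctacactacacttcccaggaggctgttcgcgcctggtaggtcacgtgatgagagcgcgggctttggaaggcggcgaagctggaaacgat

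An E2F-type word lay in the windows of 17 of these 37 genes (45.9%), against 560 of the 19005 protein-coding genes with a window (2.95%) and 1 of 34 genes of mitosis (2.94%). The 17 windows held 27 matches, counting separately those that overlap on opposite strands, as in the run TTTGGCGCCAAA of Gins1, and 18 matches began within 50 bases of the start. By role, the word was found in 5 of 6 MCM genes with a window, 2 of 6 genes of helicase activation, 3 of 9 genes of the clamp, its loader and strand joining, 2 of 5 polymerase and primase genes, and 1 of 4 genes of deoxynucleotide supply. Among genes both measured and with a window, it was found in 8 of 23 called lower by rapamycin in ELT3 (34.8%), 6 of 9 not called there (66.7%) and 2 of 8 called for the difference of responses (25%), shares given as a description with no test. A CCAAT box (CCAAT on either strand) was found in 22 of the 37 genes (59.5%), against 39.8% of protein-coding genes and 25 of 34 genes of mitosis (73.5%). The CHR word TTTGAA, known from promoters of mitotic genes, was found in 5 of 37 (13.5%), against 18.1% of protein-coding genes and 25 of 34 genes of mitosis (73.5%). A match describes letters and is not a measured binding site.

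**Figure D1:**
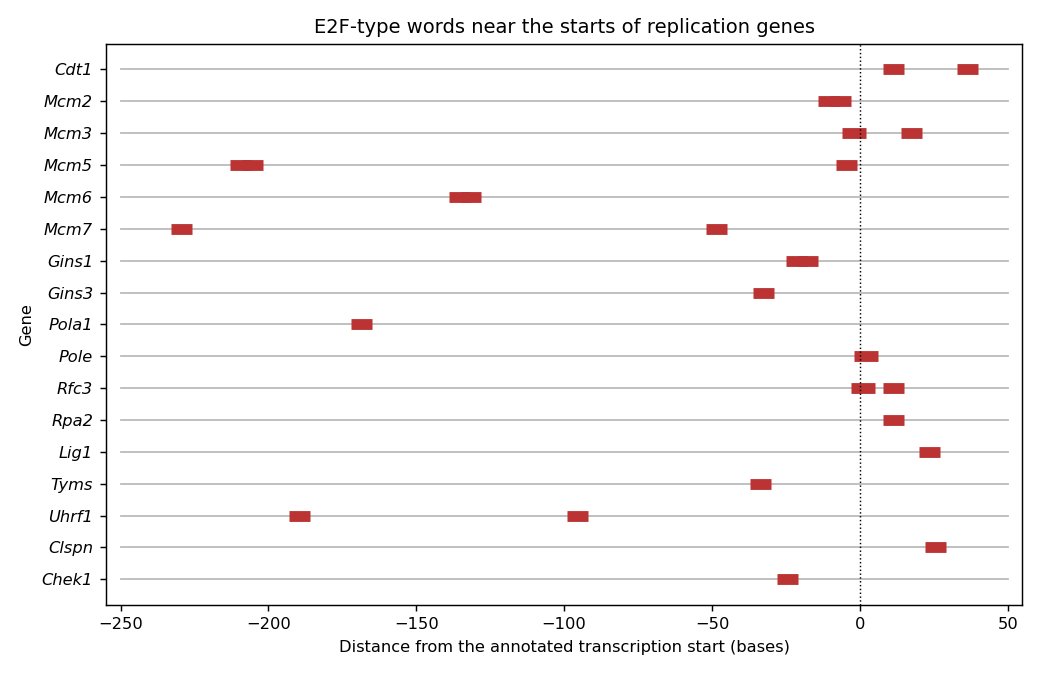
Positions of E2F-type words (red) in the promoter windows (grey lines) of the 17 replication genes that hold at least 1, with the distance from the annotated start in bases on the x axis and the start marked by a dotted line. Of 27 words, 18 began within 50 bases of the start.

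The 12 arrays were alike in scale, with medians between 6.69 and 6.82 on the log2 scale, and arrays of 1 group correlated with r between 0.9928 and 0.9966 over all probe sets. Markers were read as a check of the lines. Of 11 smooth muscle markers, Acta2, Des, Cald1 and Smtn were among the bright ones in both lines, whereas Myh11, the smooth muscle myosin, was below the array medians in every group. The summed level of the list (log2 of the summed signals) was 17.15 to 17.19 in ELT3 in DMSO, 18.30 to 18.38 in ELT3 in rapamycin, 17.29 to 17.39 in ELT3-245 in DMSO and 17.62 to 17.77 in ELT3-245 in rapamycin. With rapamycin, 6 of these 11 rose in ELT3 (beside 7.47% of all probe sets) and 2 in ELT3-245 (5.65%), at an adjusted p under 0.05 and at least 1.5-fold. By the same rule 5 were lower in ELT3-245 than in ELT3 in DMSO (7.56% of all probe sets) and 5 in rapamycin (7.92%), with Tagln, an actin-binding protein of smooth muscle, 8.56-fold and 4.87-fold lower. The list was mixed in DMSO, where 2 were higher in ELT3-245 (7.3% of all probe sets), Lmod1 by 2.75-fold and Des by 1.93-fold. In rapamycin 0 were higher (8.86%). The part of these shifts in the results on replication genes was not tested. The leukocyte markers (9 of 10 measured) summed to 12.43 to 12.70, 13.81 to 14.09, 12.50 to 12.56 and 13.54 to 13.85 in the same order. Ptprc, the pan-leukocyte CD45, and Itgam were under the array medians in every group, whereas Cd14 was the brightest of the list and rose 2.84-fold with rapamycin in ELT3 and 2.86-fold in ELT3-245. Csf1r fell 6.28-fold and 7.0-fold, and Cd3e, a T-cell receptor subunit, was 62.0-fold higher in ELT3-245 than in ELT3 in DMSO (mean log2 signals 10.78 and 4.82) and 68.2-fold higher in rapamycin. In DMSO 2 of the 9 were higher in ELT3-245 (Cd3e, and Cd68 by 3.0-fold) and 1 lower (Cd14), beside 7.3% and 7.56% of all probe sets. The 8 endothelial markers summed to 8.34 to 8.46, 8.44 to 8.49, 13.36 to 13.66 and 11.61 to 11.87, of which Kdr accounted for the level in ELT3-245 while Cdh5 and Vwf stayed under the array medians. In DMSO 1 of the 8 was higher in ELT3-245 (Kdr) and 1 lower (Tek, 2.97-fold), beside the same shares. In rapamycin 1 was higher (Kdr, beside 8.86%) and 2 lower (Tek by 3.03-fold and Pecam1 by 1.84-fold, beside 7.92%).

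Rapamycin lowered the replication genes of ELT3 broadly. A gene was called changed where limma's Benjamini-Hochberg adjusted p over all 23188 probe sets was under 0.05 and the change was at least 1.5-fold. By this rule 26 of 38 genes fell and 0 rose in ELT3, where 8.45% of all probe sets fell and 7.47% rose. By the adjusted p alone 34 fell, against 13.6% of all probe sets. All 38 differences were below 0, from -1.71 (Orc1) to -0.10 (Lig1), with a median of -0.74 (a 1.67-fold reduction) where the median of all probe sets was 0.02. At limma's unadjusted p under 0.05, 35 were lower and 0 higher. The share of all probe sets at this unadjusted p was not computed, so counts by it, here and below, are descriptions only. Of the 26 calls, those of Gins3, Pola1 and Chek1 ended without ELT3 DMSO replicate 3 (log2 -0.52, -0.57 and -0.56), that of Gins3 without ELT3 rapamycin replicate 2 (-0.56) and that of Pola1 without ELT3 rapamycin replicate 3 (-0.48), each under 1.5-fold.

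In ELT3-245 few of these genes passed the thresholds with the same treatment. Only Gins1 and Rfc5 fell by the same rule, 2 of 38 beside 4.98% of all probe sets, and 0 rose beside 5.65%. By the adjusted p alone 10 genes fell (9.24% of all probe sets), namely Gins1, Rfc5, Chaf1b, Orc1, Dut, Rfc2, Dbf4, Rfc4, Tk1 and Mcm6. The median difference was -0.22, the range -0.65 to 0.24, and 30 genes lay below 0 and 8 above it. At an unadjusted p under 0.05, 16 were lower and 0 higher, with no share of all probe sets to set beside them. Without ELT3-245 rapamycin replicate 3 the count was 1, since Gins1 gave -0.55, and without replicate 1 it was 4. Without ELT3-245 rapamycin replicate 2, Rfc5 gave -0.53 and was not called, while Chaf1b was.

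Tested directly, the responses of the lines differed for 10 of 38 genes, which had a smaller reduction or none in ELT3-245 (2.17% of all probe sets by this rule), and 0 differed the other way (2.06%). These were Orc1, Cdt1, Rfc3, Fen1, Cdc7, Cdc45, Cdc6, Chaf1b, Rrm1 and Tk1, and the adjusted p alone gave 10 genes as well, beside 2.23% of all probe sets. The difference of responses was above 0 for all 38 genes, with a median of 0.50 against -0.01 for all probe sets, and 29 of them had an unadjusted p under 0.05. Orc1, Fen1 and Cdc6 passed in each of the 12 fits that left out 1 array, and Rfc3 in 10 of them, whereas Cdc45 passed in 4, Cdt1 and Rrm1 in 3, Cdc7 and Chaf1b in 2 and Tk1 in 0. The count of genes was below 7 in 9 of these 12 fits, with a lowest value of 3.

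**Figure D2:**
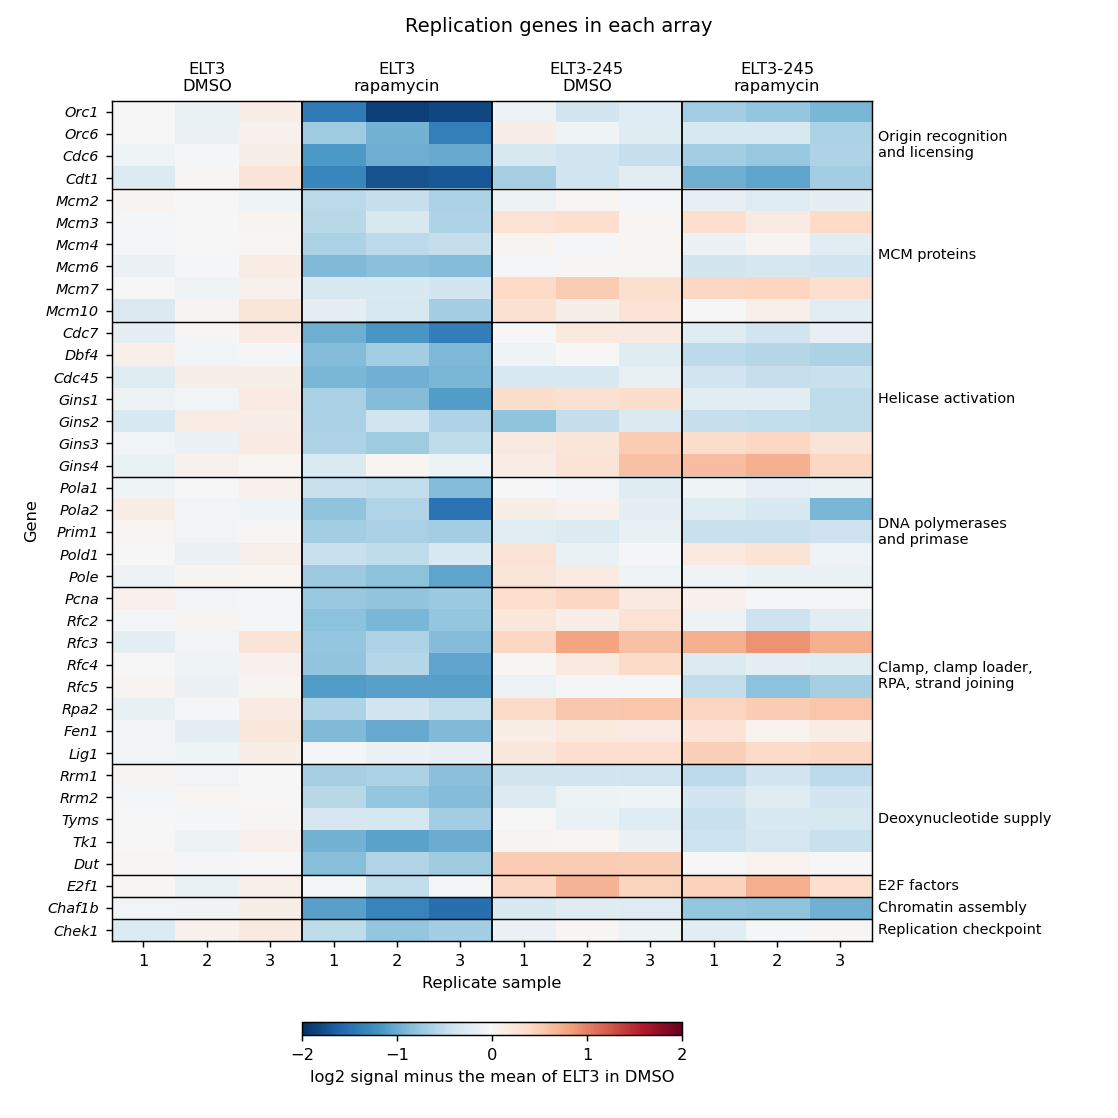
Log2 signal of the 38 measured replication genes (rows, grouped by role) in each of the 12 arrays (columns, 3 per group), minus the gene's mean in ELT3 in DMSO. ELT3 in rapamycin is below this mean in nearly every cell, with array medians of -0.71, -0.67 and -0.85, against -0.22, -0.23 and -0.22 for ELT3-245 in rapamycin.

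The array medians of the 38 genes, set against the ELT3 mean in DMSO, summarize the 4 groups. ELT3 gave -0.04, -0.04 and 0.09 in DMSO, and -0.71, -0.67 and -0.85 once rapamycin was added. ELT3-245 gave 0.06, 0.05 and -0.02 in DMSO, and -0.22, -0.23 and -0.22 once rapamycin was added. The arrays of both lines in DMSO overlapped, and the groups in rapamycin did not.

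The largest reductions were among the licensing genes. All 4 fell in ELT3 (median -1.31), beside 8.45% of all probe sets. In ELT3-245, 0 of 4 fell (median -0.42), beside 4.98%, and 3 had an unadjusted p under 0.05. In groups as small as these roles, a count of 0 is near the share of all probe sets. Orc1 encodes the ATPase subunit of the origin recognition complex. Orc1 read 9.59, 9.44 and 9.72 in the 3 ELT3 plates in DMSO and 8.16, 7.71 and 7.76 in rapamycin. The ELT3-245 plates read 9.48, 9.20 and 9.32 in DMSO and 8.88, 8.81 and 8.66 in rapamycin. The ELT3 plates in rapamycin were the lowest, those of ELT3-245 in rapamycin lay between, and the DMSO plates of both lines overlapped at the top. Orc1 fell by 1.71 (SE 0.14) in ELT3, a 3.27-fold reduction with an adjusted p of 4.74e-06. In ELT3-245 its difference was -0.55 (SE 0.14, adjusted p = 0.0166), under the 1.5-fold threshold, and the responses differed by 1.16 (SE 0.20, adjusted p = 0.00825).

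Cdt1 encodes the factor that brings the MCM helicase to origins and is destroyed once S phase begins. In ELT3, the log2 signals of Cdt1 were 9.60, 9.89 and 10.13 with DMSO and 8.57, 8.13 and 8.18 with rapamycin. In ELT3-245, Cdt1 gave 9.20, 9.47 and 9.66 in DMSO and 8.89, 8.82 and 9.17 in rapamycin. The groups in rapamycin did not overlap, and ELT3-245 in DMSO overlapped ELT3 in DMSO. The reduction in ELT3 was 3.0-fold (log2 -1.58, SE 0.18, adjusted p = 4.68e-05), and the value in ELT3-245 was -0.48 (SE 0.18, adjusted p = 0.0857). The responses of Cdt1 differed by 1.10 (SE 0.25, adjusted p = 0.0301), and this call was lost in 9 of 12 fits with 1 array left out, where its size ranged from 0.97 to 1.24. Cdc6, the loading partner of CDT1, fell by 1.04 in ELT3 (adjusted p = 1.82e-05) with -0.30 in ELT3-245, and Orc6, the smallest origin recognition subunit, fell by 1.01 (adjusted p = 0.000855) with -0.37 in ELT3-245.

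The MCM genes, which encode the ring-shaped replicative helicase, moved less. Among the 6 measured, only Mcm6 fell past 1.5-fold in ELT3 (log2 -0.86, adjusted p = 5.87e-05), beside 8.45% of all probe sets. Mcm2, Mcm4, Mcm3 and Mcm7 passed the adjusted p with smaller differences of -0.54, -0.54, -0.50 and -0.33. Mcm10, a helicase activator rather than a ring subunit, gave -0.40 (adjusted p = 0.0986). Log2 signals of Mcm3 were 12.99, 13.03 and 13.08 in DMSO-treated ELT3 and 12.47, 12.71 and 12.42 in rapamycin-treated ELT3. In ELT3-245 the DMSO plates read 13.32, 13.37 and 13.06 and the rapamycin plates 13.36, 13.20 and 13.43. Every rapamycin-treated ELT3 plate was below all other plates, and the ELT3-245 plates in DMSO and rapamycin overlapped. Mcm3 was 1.74-fold higher in ELT3-245 than in ELT3 in rapamycin (log2 0.80, SE 0.12, adjusted p = 0.000345), and its responses differed by 0.58 (95% confidence interval 0.21 to 0.96, adjusted p = 0.0838), which was not called. Of the responses of MCM genes, 0 of 6 were called different between the lines, near the share of all probe sets (2.17% above 0), and 5 of 6 had an unadjusted p under 0.05.

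Among the 7 genes that activate the helicase, 5 fell in ELT3 (beside 8.45% of all probe sets) and 1 in ELT3-245 (beside 4.98%). The responses of 2 differed (beside 2.17% above 0). Cdc7 encodes the kinase that phosphorylates the loaded MCM ring. Cdc7 read 10.55, 10.76 and 10.91 in the 3 ELT3 plates in DMSO and 9.76, 9.58 and 9.35 in rapamycin. The ELT3-245 plates read 10.75, 10.93 and 10.92 in DMSO and 10.50, 10.35 and 10.58 in rapamycin. The 3 plates of ELT3 in rapamycin were the lowest, and the other groups overlapped in part. Cdc7 fell by 1.18 (SE 0.14, adjusted p = 5.76e-05) in ELT3, a 2.26-fold reduction, against -0.39 (adjusted p = 0.0673) in ELT3-245. Its kinase partner Dbf4 fell by 0.82 in ELT3 (adjusted p = 0.00014) and gave -0.46 in ELT3-245, and the helicase cofactor Cdc45 fell by 0.92 (adjusted p = 9.61e-05) and gave -0.17.

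The GINS complex binds the MCM ring with CDC45. Of its 4 subunits, Gins1 and Gins3 passed both criteria in ELT3 and only Gins1 in ELT3-245, and the subunits were not tested against each other. In ELT3, the log2 signals of Gins1 were 10.44, 10.48 and 10.70 with DMSO and 9.89, 9.67 and 9.43 with rapamycin. In ELT3-245, Gins1 gave 10.89, 10.84 and 10.89 in DMSO and 10.33, 10.31 and 10.03 in rapamycin. None of the 4 groups of Gins1 overlapped with another, and both lines were lower in rapamycin. Gins1 fell by 0.88 (SE 0.14, adjusted p = 0.000494) in ELT3 and by 0.65 (SE 0.14, adjusted p = 0.0057) in ELT3-245, with a difference of responses of 0.23 (95% confidence interval -0.19 to 0.65, adjusted p = 0.574). Without ELT3-245 rapamycin replicate 3 the latter reduction was 0.55 on the log2 scale, under the fold threshold.

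Log2 signals of Gins3 were 9.35, 9.30 and 9.58 in DMSO-treated ELT3 and 8.80, 8.70 and 8.90 in rapamycin-treated ELT3. In ELT3-245 the DMSO plates read 9.59, 9.65 and 9.91 and the rapamycin plates 9.76, 9.82 and 9.67. Both ELT3-245 groups of Gins3 overlapped and were above both ELT3 groups. Gins3 fell by 0.61 in ELT3 (adjusted p = 0.00261), a call that ended in 2 of 12 fits with 1 array left out, gave 0.03 in ELT3-245 (95% confidence interval -0.23 to 0.30), and was 1.93-fold higher in ELT3-245 than in ELT3 in rapamycin (log2 0.95, SE 0.12, adjusted p = 8.01e-05). Gins2 and Gins4 did not pass in ELT3 with both criteria (-0.56 and -0.12).

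Of the polymerase and primase genes, 4 of 5 fell in ELT3, beside 8.45% of all probe sets. In ELT3-245, 0 were called (2 at an unadjusted p under 0.05), beside 4.98% lower and 5.65% higher. For the difference of responses, 0 were called (4 at an unadjusted p under 0.05), beside 2.17% above 0. Both counts of 0 are near the shares of all probe sets. Pole encodes the catalytic subunit of polymerase ε, which copies the leading strand. Pole read 11.99, 12.15 and 12.13 in the 3 ELT3 plates in DMSO and 11.37, 11.27 and 11.04 in rapamycin. The ELT3-245 plates read 12.33, 12.26 and 12 in DMSO and 12.01, 11.95 and 11.96 in rapamycin. The ELT3 plates in rapamycin were lower than all other plates, which overlapped. Pole fell by 0.86 (SE 0.12, adjusted p = 0.000246) in ELT3, gave -0.22 (adjusted p = 0.263) in ELT3-245, and was 1.68-fold higher in ELT3-245 in rapamycin (adjusted p = 0.000589). The difference of its responses was 0.64 (95% confidence interval 0.26 to 1.02, adjusted p = 0.0613). Pola2, Prim1 and Pola1, subunits of the polymerase α-primase that starts new strands, fell by 0.96, 0.68 and 0.61 in ELT3 (adjusted p = 0.00738, 0.000143 and 0.00333), and the call of Pola1 ended without ELT3 DMSO replicate 3 (-0.57) or ELT3 rapamycin replicate 3 (-0.48). Pola2 was the least even of these, with 8.67 in ELT3 rapamycin replicate 3 against 9.33 and 9.54 in the other replicates. Pold1, the catalytic subunit of polymerase δ, gave -0.42, at signals of 5.31 to 6.10 that lay below the array medians.

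The clamp, the clamp loader, RPA and the strand-joining enzymes held the genes that separated the lines most in rapamycin. Of 8 measured, 6 fell in ELT3 (beside 8.45% of all probe sets) and 1 in ELT3-245 (beside 4.98%). In rapamycin 5 were higher in ELT3-245 than in ELT3 (beside 8.86%). Fen1 encodes the nuclease that trims the flaps of Okazaki fragments. In ELT3, the log2 signals of Fen1 were 10.62, 10.49 and 10.90 with DMSO and 9.79, 9.66 and 9.79 with rapamycin. In ELT3-245, Fen1 gave 10.80, 10.87 and 10.83 in DMSO and 10.94, 10.74 and 10.82 in rapamycin. Only the ELT3 plates in rapamycin stood apart, below the other 9. Fen1 fell by 0.92 (SE 0.12, adjusted p = 0.000119) in ELT3 and gave 0.00 in ELT3-245 (95% confidence interval -0.26 to 0.26). The responses differed by 0.92 (SE 0.17, adjusted p = 0.0109), and in rapamycin Fen1 was 2.13-fold higher in ELT3-245 (log2 1.09, adjusted p = 2.03e-05).

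Rfc3, a subunit of the clamp loader, had the largest difference between the lines. Log2 signals of Rfc3 were 9.41, 9.53 and 9.84 in DMSO-treated ELT3 and 8.82, 8.97 and 8.73 in rapamycin-treated ELT3. In ELT3-245 the DMSO plates read 10.00, 10.38 and 10.17 and the rapamycin plates 10.31, 10.49 and 10.31. Both ELT3-245 groups overlapped and lay above ELT3 in DMSO, which lay above ELT3 in rapamycin. Rfc3 fell by 0.75 (SE 0.14, adjusted p = 0.00168) in ELT3 and gave 0.19 (adjusted p = 0.447) in ELT3-245, and the responses differed by 0.94 (SE 0.20, adjusted p = 0.0219). In rapamycin it was 2.89-fold higher in ELT3-245 (log2 1.53, SE 0.14, adjusted p = 4.28e-06). In DMSO it was 1.51-fold higher (log2 0.59, SE 0.14, adjusted p = 0.00875), a difference close to the fold threshold.

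Rfc5, another loader subunit, passed both criteria for a reduction in both lines. Its response was not tested against that of Rfc3. Rfc5 read 11.85, 11.69 and 11.86 in the 3 ELT3 plates in DMSO and 10.69, 10.72 and 10.71 in rapamycin. The ELT3-245 plates read 11.70, 11.78 and 11.76 in DMSO and 11.31, 10.98 and 11.13 in rapamycin. The DMSO groups overlapped, and both rapamycin groups were below them without overlap, ELT3 lowest. Rfc5 fell by 1.10 (SE 0.11, adjusted p = 1.81e-05) in ELT3 and by 0.61 (SE 0.11, adjusted p = 0.002) in ELT3-245, with a difference of responses of 0.49 (95% confidence interval 0.16 to 0.82, adjusted p = 0.10). Without ELT3-245 rapamycin replicate 2 the reduction in ELT3-245 was 0.53 on the log2 scale, under the fold threshold. Rfc2 and Rfc4 fell by 0.83 and 0.81 in ELT3, and the clamp gene Pcna fell by 0.76 (adjusted p = 0.000133) with -0.31 in ELT3-245.

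Rpa2 encodes a subunit of the complex that coats single-stranded DNA. In ELT3, the log2 signals of Rpa2 were 11.55, 11.67 and 11.87 with DMSO and 11.08, 11.33 and 11.20 with rapamycin. In ELT3-245, Rpa2 gave 12.08, 12.24 and 12.25 in DMSO and 12.13, 12.21 and 12.25 in rapamycin. The ELT3-245 groups overlapped and were above both ELT3 groups, which did not overlap. Rpa2 was 1.99-fold higher in ELT3-245 in rapamycin (log2 0.99, SE 0.12, adjusted p = 3.59e-05). Its differences of -0.49 for rapamycin in ELT3 and 0.49 between the lines in DMSO were under the fold threshold (adjusted p = 0.00737 and 0.00801).

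Lig1, the ligase that seals Okazaki fragments, had the smallest rapamycin difference in ELT3. Log2 signals of Lig1 were 11.64, 11.61 and 11.81 in DMSO-treated ELT3 and 11.66, 11.58 and 11.52 in rapamycin-treated ELT3. In ELT3-245 the DMSO plates read 11.90, 12.03 and 12.03 and the rapamycin plates 12.17, 12.08 and 12.11. Its ELT3 groups overlapped, and all ELT3-245 plates were above all ELT3 plates. The ELT3 difference of Lig1 was -0.10 (95% confidence interval -0.32 to 0.12, adjusted p = 0.545), and in rapamycin the lines differed by 0.53 (adjusted p = 0.00171), under 1.5-fold.

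**Figure D3:**
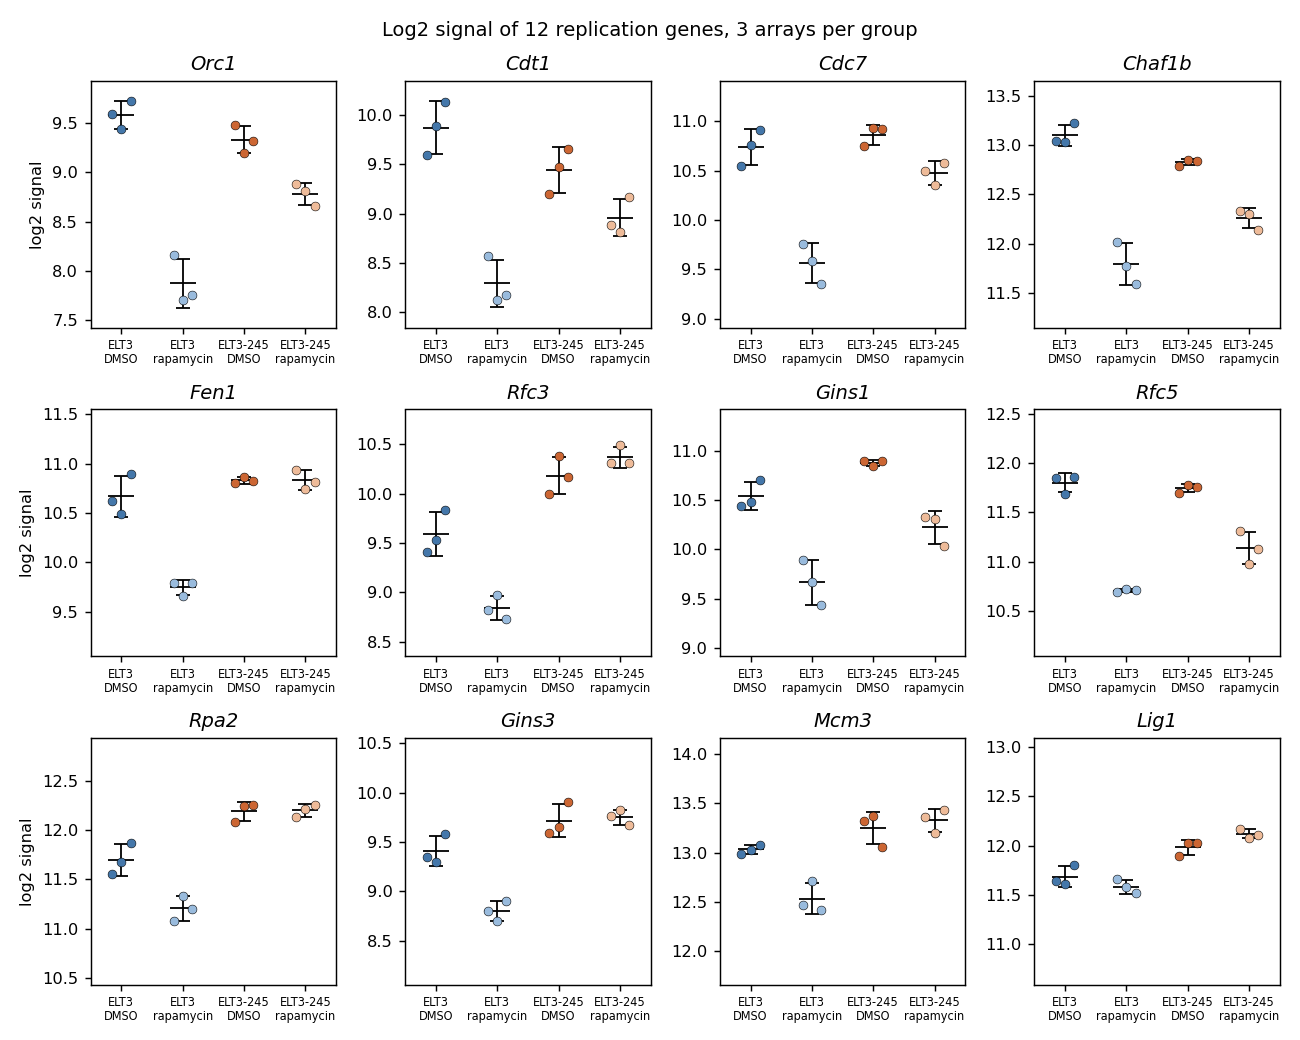
Log2 signal of 12 replication genes in each plate (points), with the group mean (long bar) and SD (error bar, n = 3), on y axes that each span 2.5 log2 units. For Fen1 the ELT3 plates in rapamycin lie between 9.66 and 9.79 and all other plates between 10.49 and 10.94, and for Gins1 both lines are lower in rapamycin.

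Among the enzymes of deoxynucleotide supply, 4 of 5 fell in ELT3, beside 8.45% of all probe sets. In ELT3-245, 0 fell (2 at an unadjusted p under 0.05), near the 4.98% of all probe sets. The responses of 2 differed, beside 2.17% above 0. Rrm1 encodes the large subunit of ribonucleotide reductase. Rrm1 read 16.55, 16.43 and 16.50 in the 3 ELT3 plates in DMSO and 15.83, 15.85 and 15.66 in rapamycin. The ELT3-245 plates read 16.13, 16.11 and 16.09 in DMSO and 15.97, 16.11 and 15.97 in rapamycin. The ELT3 groups were the highest in DMSO and the lowest in rapamycin, with both ELT3-245 groups overlapping between them. Rrm1 fell by 0.71 (SE 0.10, adjusted p = 0.000203) in ELT3 and gave -0.09 (adjusted p = 0.607) in ELT3-245, and the responses differed by 0.62 (SE 0.14, adjusted p = 0.0281), a call lost in 9 of 12 fits with 1 array left out. Its partner subunit Rrm2 fell by 0.73 in ELT3 (adjusted p = 0.000419). Tk1, the thymidine salvage kinase, fell by 1.0 (adjusted p = 2.08e-05) and Dut, which removes dUTP, by 0.72 (adjusted p = 0.000162), whereas Tyms, the thymidylate synthase, gave -0.46 (adjusted p = 0.0133), under the fold threshold.

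E2f1, a transcription factor of S-phase genes, had higher signals in the ELT3-245 plates. In ELT3, the log2 signals of E2f1 were 6.79, 6.62 and 6.86 with DMSO and 6.73, 6.27 and 6.73 with rapamycin. In ELT3-245, E2f1 gave 7.17, 7.44 and 7.20 in DMSO and 7.22, 7.49 and 7.10 in rapamycin. The ELT3 groups overlapped, as did the ELT3-245 groups, and every ELT3-245 plate was above every ELT3 plate. These signals were near the array medians. E2f1 was 1.62-fold higher in ELT3-245 in rapamycin (log2 0.69, SE 0.15, adjusted p = 0.00504) and gave 0.51 in DMSO (adjusted p = 0.0309), under the fold threshold. The call in rapamycin ended without ELT3-245 rapamycin replicate 2 (log2 0.58, adjusted p = 0.027) or ELT3 rapamycin replicate 2 (log2 0.54, adjusted p = 0.0215), both under 1.5-fold. Its rapamycin differences were -0.18 in ELT3 (95% confidence interval -0.51 to 0.16) and 0.00 in ELT3-245 (-0.34 to 0.33).

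Chaf1b encodes a subunit of the chaperone that deposits histones on new DNA. Log2 signals of Chaf1b were 13.04, 13.03 and 13.22 in DMSO-treated ELT3 and 12.02, 11.77 and 11.59 in rapamycin-treated ELT3. In ELT3-245 the DMSO plates read 12.79, 12.85 and 12.84 and the rapamycin plates 12.33, 12.30 and 12.14. None of its groups overlapped, and both lines were lower in rapamycin. Chaf1b fell by 1.31 (SE 0.12, adjusted p = 1.26e-05) in ELT3, a 2.47-fold reduction, and gave -0.57 (SE 0.12, adjusted p = 0.00648) in ELT3-245, just under 1.5-fold. The responses differed by 0.74 (SE 0.17, adjusted p = 0.0342), a call lost in 10 of 12 fits with 1 array left out.

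Chek1 encodes the checkpoint kinase that restrains origin firing when forks stall. Chek1 read 10.49, 10.85 and 10.94 in the 3 ELT3 plates in DMSO and 10.25, 9.98 and 10.08 in rapamycin. The ELT3-245 plates read 10.65, 10.78 and 10.66 in DMSO and 10.53, 10.72 and 10.79 in rapamycin. The ELT3 plates in rapamycin were below all others, which overlapped. Chek1 fell by 0.66 (SE 0.14, adjusted p = 0.00348) in ELT3, a call that ended without ELT3 DMSO replicate 3 (log2 -0.56), and gave -0.01 (95% confidence interval -0.31 to 0.28) in ELT3-245, and the difference of responses was 0.64 (adjusted p = 0.0882).

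**Figure D4:**
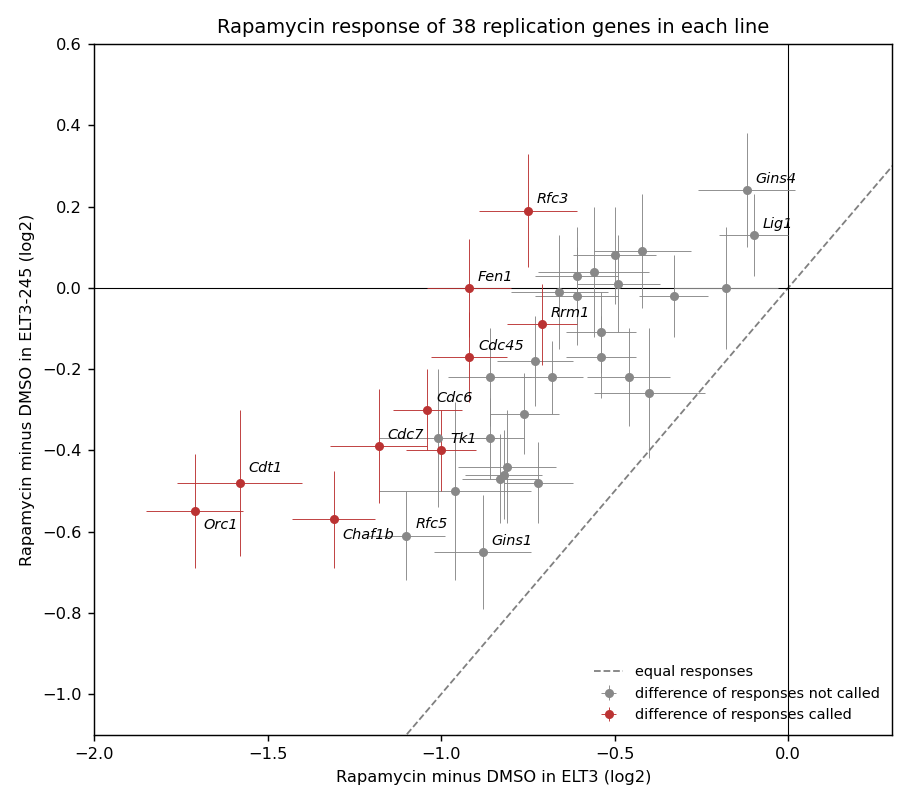
Rapamycin minus DMSO in ELT3 (x axis, log2) and in ELT3-245 (y axis, log2) for the 38 genes, with SE bars, and the dashed line marking equal responses. All 38 points lie above the line, and the 10 genes whose difference of responses was called are red.

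The sizes of the responses in the lines, which share no samples, had a Pearson r of 0.73 across the 38 genes, given as a description because genes are not independent replicates. In ELT3-245, 11 genes were within 0.1 log2 units of no difference, against 1 in ELT3.

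By both criteria, more of these genes differed between the lines in rapamycin than in DMSO. In DMSO, 1 of 38 genes was higher in ELT3-245 (Rfc3, beside 7.3% of all probe sets) and 0 were lower (7.56%), with a median of 0.02 and 10 higher and 7 lower at an unadjusted p under 0.05. Without ELT3-245 DMSO replicate 2 or ELT3 DMSO replicate 2 the count was 0, and it was 2 without ELT3-245 DMSO replicate 3, where Gins2 was called lower. By the adjusted p alone 6 of 38 genes were higher, beside 2575 of all 23188 probe sets, and 3 were lower, beside 2447. Counted in both directions, the genes thus differed in DMSO about as often as all probe sets. The higher ones were Rfc3, E2f1, Dut, Rpa2, Mcm7 and Pcna (0.59, 0.51, 0.50, 0.49, 0.41 and 0.32). The lower ones were Gins2, Cdc6 and Rrm1 (-0.52, -0.39 and -0.38). In rapamycin, 16 of 38 were higher in ELT3-245 (8.86% of all probe sets) and 0 lower (7.92%, and 0 at an unadjusted p under 0.05), with a median of 0.56, and by the adjusted p alone 31 were higher (13.5%). The 16 were Rfc3, Fen1, Rpa2, Gins3, Cdc7, Orc1, Mcm3, Pcna, Pole, Dut, Mcm7, Gins4, E2f1, Cdt1, Tk1 and Rfc2, while Orc6 and Chek1 (both log2 0.58) were just under the fold threshold. With 1 array left out, Cdt1 and Rfc2 each lost this call in 3 of 12 fits (log2 0.57 to 0.61 and 0.51 to 0.57), and Tk1 and E2f1 in 2 (0.56 to 0.57 and 0.54 to 0.58), in each case without a rapamycin replicate. Omission of a DMSO array cannot change these log2 differences, so those fits are a weak check. These comparisons share plates with the rapamycin responses above. Cdc6, Cdc45, Rrm1 and Chaf1b were called for the difference of responses but not between the lines in rapamycin (log2 0.35, 0.50, 0.24 and 0.46). In DMSO they gave -0.39, -0.25, -0.38 and -0.27, and their difference of responses includes these DMSO values. Mcm2, Mcm4, Mcm10, Gins2, Lig1, Pold1 and Tyms passed both criteria in no comparison.

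Other genes of replication and of the cell cycle were read beside them. By the same rule 8.45% of all probe sets fell and 7.47% rose in ELT3, and 4.98% fell and 5.65% rose in ELT3-245. The difference of responses was called above 0 for 2.17%, and 8.86% were higher in ELT3-245 in rapamycin. These shares stand beside the counts of this paragraph and the next. Of 27 further genes of the replication machinery, 15 fell and 1 rose in ELT3 (median -0.69), and 3 fell and 1 rose in ELT3-245 (median -0.07). Pold2, an accessory subunit of polymerase δ, fell by 1.43 and Chtf18, of an alternative clamp loader, by 1.28 in ELT3, while the small δ subunit Pold4 rose by 1.28. The responses of 6 of the 27 differed, all less negative in ELT3-245, led by Pold2 (1.36) and the helicase gene Recql4 (1.29). Rnaseh2a, the catalytic subunit of ribonuclease H2, was higher in ELT3-245 in DMSO by 3.04 and in rapamycin by 3.71 on the log2 scale, beyond any of the 38 genes.

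Of 22 genes of S-phase chromatin and repair, 11 fell in ELT3 (Cdca7 by 1.29 and Xrcc2 by 1.19 the most) and 1 fell and 1 rose in ELT3-245, and 6 responses differed. Of 35 genes of mitosis, 24 fell in ELT3 (median -0.71), led by Cdc20 (-1.70) and Cdc25b (-1.29), and 4 in ELT3-245 (median -0.25). The responses of 4 of the 35 differed, and 22 were higher in ELT3-245 in rapamycin. Of 11 E2F and RB family genes, 4 fell in ELT3, including Mybl2 (-1.20) and Lin54 (-1.05), and 0 in ELT3-245, where E2f6 and E2f7 rose by 0.98 and 0.92. Of 16 G1 cyclins, their kinases and inhibitors, 4 fell in ELT3 (Cdk2 by 1.11 and Cdkn2d by 0.99 the most) and Cdkn2b, which inhibits CDK4 and CDK6, rose by 0.95. In ELT3-245, 3 of these 16 rose, including Ccnd1 (0.97) and Cdkn1a (0.90). Of 12 further genes of nucleotide supply, 2 fell and 2 rose in ELT3, and 1 fell and 3 rose in ELT3-245.

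**Figure D5:**
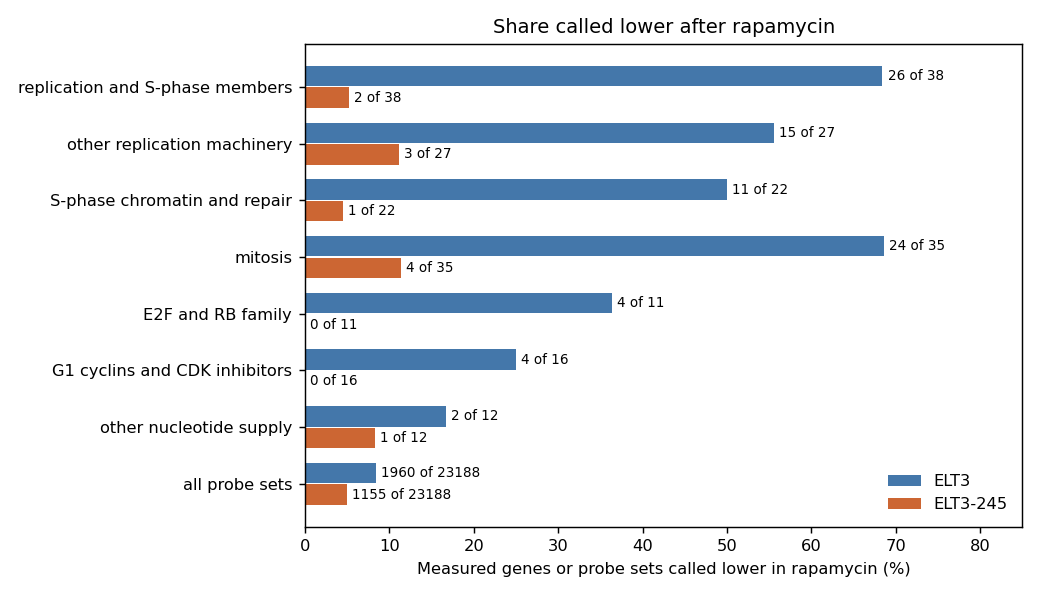
Share of measured genes called lower in rapamycin (x axis, percent) in ELT3 (blue) and ELT3-245 (orange), for the replication genes, 6 other lists and all probe sets, with counts at the bar ends. In ELT3, 26 of 38 replication genes and 24 of 35 genes of mitosis were lower, and in ELT3-245 2 of 38 and 4 of 35.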

How the data were processed

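RNA of 12 rat cell cultures, 3 plates in each of 4 groups, was hybridized to Clariom S arrays. The authors deposited log2 signals made with RMA, which corrects background, normalizes between arrays and summarizes each probe set. The version of RMA and the build of the probe sets are not given in the sources used here. In the platform annotation, 15049 of 23188 probe sets had 1 symbol and 8139 none. All columns matched a sample. Groups came from the sample labels.

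All probe sets of all 12 arrays were fitted with limma 3.58.1 in R 4.3.3 as 4 group means (lmFit, contrasts and eBayes, with 8 residual degrees of freedom), and 5 comparisons were made: the rapamycin response of each line, the lines in each treatment, and the difference of the responses. Tests were two-sided, with Benjamini-Hochberg adjustment over all probe sets. A call needed an adjusted p under 0.05 and a 1.5-fold change. Intervals are 95% and from the same fit. The number of arrays limits the precision. The fitting step was tested on simulated data. Promoter words were searched in Python 3.11.15 with pandas 2.3.3, and figures were drawn with Matplotlib 3.10.9.

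The genes and the lists (other replication machinery, S-phase chromatin and repair, mitosis, E2F and RB family, G1 cyclins and CDK inhibitors, nucleotide supply, and smooth muscle, leukocyte and endothelial markers) were chosen with earlier results of these data known, and no list was tested as a set. Values by array are given for the 4 called genes with the largest difference in each comparison, the gene with the smallest difference in each rapamycin response, and, in a role with none of these, the gene with the largest difference of responses. Of other lists, at most the 2 called genes with the largest difference in each direction were named per comparison. Pseudogene copies are annotated for 11 of the 44 genes (Mcm2, Mcm4, Mcm7, Dbf4, Gins4, Pcna, Rfc4, Rfc5, Rpa1, Rrm1 and Tk1), and probes were not checked against them.

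The alternatives were a replicate block, centring on array medians or quantile normalization, weighting of arrays, variance moderation that was robust or followed an intensity trend, removal of the dimmest 25% of probe sets, a fit to the compared groups alone, no fold threshold, and omission of each array in turn. The authors' tables of their own comparisons were not used.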

Additional observations from a re-analysis of the deposited data

Results flagged for a closer look

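The rapamycin response differed between the lines for 10 replication genes by limma's test of the difference itself, adjusted over all probe sets, with every difference in the direction of a smaller reduction, or none, in ELT3-245. The log2 differences of the responses were 1.16 for Orc1 (adjusted p = 0.00825), 1.10 for Cdt1 (0.0301), 0.94 for Rfc3 (0.0219), 0.92 for Fen1 (0.0109) and 0.78 for Cdc7 (0.041). They were 0.75 for Cdc45 (0.025), 0.74 for Cdc6 (0.016), 0.74 for Chaf1b (0.0342), 0.62 for Rrm1 (0.0281) and 0.60 for Tk1 (0.0364). With 1 array left out, these calls held in 12 of 12 fits for Orc1, Fen1 and Cdc6, in 10 for Rfc3 and in at most 4 for the other 6 genes. Groups of 3 plates were not searched for single outlying plates.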

How the results depend on the processing

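All 38 genes kept a difference below 0 in ELT3 and a difference of responses above 0 in each of the 19 fits with another setting, and at least 37 were higher in ELT3-245 in rapamycin. Many of these fits could not change a sign. The settings of variance moderation, the replicate block and removal of dim probe sets leave the log2 differences as they were. So does omission of an array outside the groups compared. Only the remaining fits test the signs. The ELT3 count stayed within 1.5 times of 26 and its median moved to -0.81 with median centring. In ELT3-245 the count of 2 became 4 with median centring, 1 with array weights and 10 with no fold threshold, and ranged from 1 to 4 with 1 array left out. Between the lines in DMSO the count of 1 became 0 with quantile normalization or median centring (Rfc3, log2 0.56 in both) and 9 with no fold threshold, and ranged from 0 to 2 with 1 array left out. Rfc3 also lost this call without ELT3 DMSO replicate 1, where Gins2 was called lower instead. In rapamycin the count of 16 became 31 with no fold threshold, and the median ranged from 0.50 to 0.58 with 1 array left out. With an intensity trend, without the dim probe sets and with median centring, the count of 10 for the difference of responses became 14, 12 and 11. Gins3 was gained in each of these, and Pola1 with the intensity trend. Calls of this difference over all probe sets fell from 981 to between 534 and 893 with 1 array left out. The count of 10 ranged from 3 to 10 in those fits. It was 3 without ELT3-245 DMSO replicate 1 or ELT3-245 rapamycin replicate 2, and 4 without ELT3-245 DMSO replicate 2, ELT3-245 rapamycin replicate 1, or ELT3 DMSO replicate 2 or 3. It was 5 without ELT3 rapamycin replicate 2 or 3, and 6 without ELT3-245 rapamycin replicate 3. These fits hold fewer samples, and the cause was not tested further. Pole passed this test with an intensity trend (adjusted p = 0.00998) and without the dim probe sets (0.0374), and Chek1 with an intensity trend (0.0315). Over all probe sets, dropping the fold threshold raised the calls in ELT3 from 3692 to 5865 and in ELT3-245 from 2465 to 4176. With the replicate block the 5 counts were 26, 2, 1, 16 and 7, and the difference of responses was no longer called for Cdc7, Tk1 and Chaf1b (adjusted p = 0.0713, 0.0627 and 0.0565). Pola1 lost its ELT3 call with quantile normalization or array weights. Same-numbered arrays correlated at -0.124 to 0.215 after removing group means, with 4 of 18 pairs over 0.1 and 4 of 12 arrays closest to their own number. Whether same-numbered samples were handled together cannot be told from these values. Array signal limits Pold1, which lay below the array medians.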
